A study of Mus musculus with 24 samples.

Results

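The genes described here are Nsd1, Setd2 and Ash1l, which encode enzymes that methylate lysine 36 of histone H3 (H3K36). They are 3 of the 35976 genes measured. Nsd1 was chosen by its measured levels in these libraries: near absent in every library of CT26 cells, present in tumors and lower in knockout tumors. Those values are therefore given as a description, with no test. Setd2 and Ash1l were taken as genes of the same enzyme class. The study compared Sun1 knockout with control CT26, a mouse colon carcinoma line, in 24 RNA sequencing libraries. The product of Sun1 sits in the nuclear envelope and links the nucleus to the cytoskeleton. Whole tumors grown for 14 days under the skin of BALB/c mice gave 7 Sun1 knockout (KO) libraries and 8 libraries of Sun1 control line 1. Tumor cells purified from such tumors by a kit gave 2 KO libraries and 2 libraries of each of control lines 1 and 2, and cells kept in culture gave 1 library of each line. The control lines are labelled wild type for Sun1. The labels name a single KO line, so effects of Sun1 loss and of other features of the line cannot be told apart in these data. They do not say whether replicates came from separate animals or cultures, so the spread behind each p-value is that of these samples alone and may be technical.

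Methylation of H3K36 marks chromatin that is being transcribed. Nsd1 and its relatives Nsd2 and Nsd3 add the lower methylation states, largely in regions between genes and along gene bodies, where the dimethyl mark limits the spread of the repressive H3K27 trimethyl mark and helps to place DNA methylation. Setd2 travels with elongating RNA polymerase II and makes the trimethyl mark in gene bodies. Ash1l, a trithorax-group protein, adds the dimethyl mark near the start of developmental genes. In humans, heterozygous loss of NSD1 causes the overgrowth disorder Sotos syndrome, and NSD1 and SETD2 are mutated in several carcinomas.

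Total expected counts per library, the read numbers estimated for all genes, were 14140769 to 24651279 in tumors, 17068356 to 22593612 in purified cells and 18832201 to 20716917 in culture. Sun1 checked the labels. It averaged 57.5 CPM (counts-per-million) in KO tumors and 179 CPM in control tumors, and each KO library of purified or cultured cells was below each control library of its setting. Epithelial markers, which a colon line would be assumed to carry, were largely missing. Epcam and Krt19 were at 0 in every group of cells, Cdh1 was below 0.07 CPM there, and Krt18 averaged 0.592 CPM in cultured KO cells against 69.5 and 119 CPM in cultured control lines 1 and 2. The library of KO tumor replicate 6 had the lowest Setd2 and Ash1l of all tumors, and values with and without it are given beside those genes.

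Nsd1 (chromosome 13, 55209782 to 55318325, GRCm38) was a gene of the tumors and hardly of the cells. In KO tumors it ranged from 18.4 through a median of 24.9 to 27.1 CPM, and in control tumors from 95.6 through 109 to 126 CPM. Every KO tumor was thus far below every control tumor. The means were 24.4 ± 2.96 CPM in KO tumors and 112 ± 12.3 CPM in control tumors (SD, n = 7 and 8), 4.58-fold lower in KO tumors, or a log2 fold change of -2.18 ± 0.09 (SE). This is the contrast by which Nsd1 was chosen.

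Purified KO cells had 0.688 and 0.774 CPM, against 1.03 and 0.953 CPM in purified control line 1 and 1.84 and 0.277 CPM in purified control line 2. Cultured cells had 0.394 CPM in the KO line, 0.713 CPM in control line 1 and 0.310 CPM in control line 2. Behind these values stand 6 to 35 counts per library and 134 counts over the 9 cell libraries, whereas single tumor libraries held 367 to 2750. KO tumors were 33.3-fold above purified KO cells (log2 fold change 5.08 ± 0.32), and control tumors were 113-fold above purified control line 1 (6.84 ± 0.32). Setting and library preparation cannot be told apart in comparisons between tumors and purified cells.

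Among the cells no order of the lines could be read. The ratio of summed counts was 0.730 for purified KO cells over both control lines, from 31 and 76 counts, with an exact 95% interval of 0.465 to 1.12. For cultured KO cells over both control lines it was 0.780, from 8 and 19 counts (0.296 to 1.87). For purified control line 2 over control line 1 it was 1.02 (0.634 to 1.65). These intervals cover counting error only. The replicates of control line 2 differed by more than counting, with exact 95% intervals of 1.28 to 2.56 CPM and 0.102 to 0.603 CPM. The order of group means ran from control tumors through KO tumors to purified control line 2, purified control line 1, purified KO cells, cultured control line 1, cultured KO cells and cultured control line 2. The first steps, from control tumors to KO tumors and from there to the cells, are those by which Nsd1 was chosen. The later steps lay within the spread between libraries or the counting intervals.

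**Figure D1:**
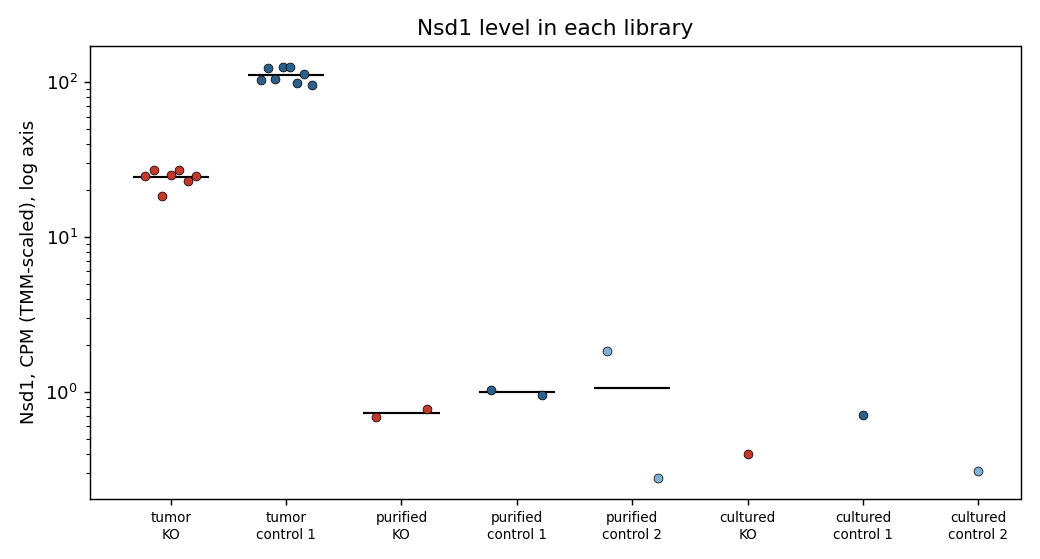
Nsd1 level in each of the 24 libraries, as CPM scaled by TMM on a log axis; points are libraries and black lines are group means. The 7 KO tumors lie between 18.4 and 27.1 CPM, the 8 control tumors between 95.6 and 126 CPM, and the 9 cell libraries at or below 1.84 CPM.

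Markers listed for several cell types also differed between the tumor groups, most of those called being higher in KO tumors. Of all 13752 genes tested there, 18.1% were called higher and 19% lower in KO (edgeR, adjusted p under 0.05). All 5 leukocyte markers were called higher, with a summed level of 480 to 750 CPM in KO tumors and 256 to 487 CPM in control tumors. In the cell libraries the same sum was 1.61 to 7.57 CPM. All 5 T cell markers were also called higher, at 68.4 to 129 CPM in KO tumors against 28.4 to 64.6 CPM in control tumors. Of 5 endothelial markers 2 were called higher (70.2 to 112 CPM in KO tumors, 58.6 to 73.9 CPM in control tumors), of 5 macrophage markers 1, a share near that of all genes (505 to 1342 CPM and 329 to 1014 CPM), and of 5 skeletal muscle markers 4 (2.42 to 99.2 CPM and 1.15 to 12.1 CPM). In cultured cells the muscle sum was 5.03 CPM in the KO line, against 0.658 and 1.03 CPM in control lines 1 and 2. In purified cells it was 3.07 and 31.2 CPM in KO, against 1.15 to 1.84 CPM in the control lines. One fibroblast marker of 5 was called lower, with summed levels of 1654 to 2529 CPM in KO tumors and 1880 to 2455 CPM in control tumors. The same sum was 1293 to 1697 CPM in cultured cells and 3006 to 4550 CPM in purified cells. Of 2 tested epithelial markers 1, Krt18, was called lower (0.254 CPM in KO tumors, 10.5 CPM in control tumors). In purified cells Krt18 averaged 0.445 CPM in KO, against 31.2 and 54.9 CPM in control lines 1 and 2. Fibroblast, muscle and Krt18 levels in tumors thus do not stand for other cell types alone, and their source was not tested. None of the 2 neutrophil and 2 erythroid markers tested was called, and 0 of the 3 B cell markers could be tested. In these bulk samples fewer cells of a type and less RNA per cell cannot be told apart. The part of cell makeup in the difference of Nsd1 was not tested.

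Nsd1 was set beside other genes that were present in control tumors and near absent in cells. A set was chosen after seeing the data: genes below 2 CPM in every cell library that averaged 20 CPM or more in control tumors. The level in KO tumors was not part of the choice, and the limit in cells lies just above the highest Nsd1 value there, 1.84 CPM. Genes entered through control tumors, the group where Nsd1 is high, so genes present in KO tumors alone could not enter. The shares below therefore describe this set only. It held 114 genes, Nsd1 included. Of the other 113, 59 (52.2%) were called higher and 3 (2.65%) lower in KO tumors, against 18.1% and 19% of all genes tested, with a median log2 fold change of 0.48, against 0.01 over all genes. Nsd1 had the lowest log2 fold change of the 114, as its selection implies. It was followed by Mmp12, a macrophage elastase (50.0 CPM in KO tumors, 143 CPM in control tumors, -1.50 ± 0.28), and Arg1, an arginase (36.8 and 87.9 CPM, -1.25 ± 0.32). Clec4n, a lectin receptor of myeloid cells, came next at 20.5 CPM in KO tumors and 33.2 CPM in control tumors (-0.68 ± 0.18).

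Mmp12, Clec4n and Arg1 were also the genes whose levels ran most like Nsd1 over the 24 libraries, with Pearson r of log2 CPM of 0.978, 0.972 and 0.972 among 12533 genes. The next were Trem1 (0.970), Pf4 (0.969), F10 (0.969), Ak4 (0.969), Slc7a2 (0.967), Fcrlb (0.966) and Ms4a4a (0.960). All 10 averaged 1.26 CPM or less in every group of cells, so the likeness rests mainly on the step from cells to tumors, which these points share. Their log2 fold changes in tumors ran from -1.50 for Mmp12 to -0.12 for Ms4a4a, a difference that also entered the measure of likeness. Over the 15 tumors, with the mean of each genotype subtracted, other genes were the most alike: Thoc6 (0.783), 4833438C02Rik (0.757), Snapc5 (0.741), 9130008F23Rik (0.734) and Ptprcap (0.730). Setd2 and Ash1l had r of 0.47 and 0.63 with Nsd1 over the 24 libraries, and of -0.04 and -0.07 over the 15 tumors.

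Within tumors of 1 genotype, Nsd1 was set against Setd2, Ash1l, Sun1 and the mean log2 CPM of the leukocyte markers, 8 relations in all, by exact permutation tests of log2 CPM (two-sided). None passed the Benjamini-Hochberg correction. The strongest was with the leukocyte markers in KO tumors, with r = 0.58 (exact permutation p = 0.176, adjusted 0.490) and rho = 0.86 (exact permutation p = 0.0238, adjusted 0.190), over 7 samples. In control tumors this relation had r = 0.56 (exact permutation p = 0.142, adjusted 0.490) and rho = 0.64 (exact permutation p = 0.0962, adjusted 0.385), over 8 samples. With libraries scaled over the tumors alone, control tumors had r = 0.60 (exact permutation p = 0.109, adjusted 0.503). Their rho was 0.74 (exact permutation p = 0.0458, adjusted 0.183). Without the 2 samples farthest from the median of Nsd1, r was 0.45 in KO tumors and 0.64 in control tumors. That value in control tumors became 0.27 when libraries were scaled over the tumors alone. For Setd2 and Ash1l in KO tumors r was -0.01 and 0.02 (exact permutation p = 0.967 and 0.958), and became 0.62 and 0.65 without those 2 samples. The samples left include KO tumor replicate 6, the lowest of them in Nsd1, Setd2 and Ash1l. The values of r thus depend on which few samples are used. In control tumors r was -0.06 for Setd2 and -0.20 for Ash1l (exact permutation p = 0.873 and 0.636).

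The genes on either side of Nsd1 did not share its pattern. No gene of the reference table overlapped Nsd1. Rab24, a small GTPase gene, lies 0.898 kb from Nsd1. It had 54.5 CPM in KO tumors, 57.7 CPM in control tumors and 54.4 and 54.9 CPM in purified KO and control line 1 cells. It was thus as high in cells as in tumors (tumors: -0.07 ± 0.05, edgeR adjusted p = 0.297). Prelid1, which carries lipid into mitochondria, lies 3.73 kb away and fell slightly in KO tumors (414 CPM against 464 CPM, -0.15 ± 0.05, edgeR adjusted p = 0.0153). Mxd3, Lman2 and Rgs14 followed on that side and did not pass, although Rgs14 was called higher without KO tumor replicate 6 or 7 (0.38 in both, edgeR adjusted p 0.0489 and 0.0490). On the other side Fgfr4, 41.0 kb away, was below 0.07 CPM in every group, and Unc5a below 0.26 CPM. Zfp346 did not pass (0.03 ± 0.08), and Uimc1, a DNA repair adaptor gene 109 kb away, rose in KO tumors (60.7 CPM against 51.7 CPM, 0.24 ± 0.08, edgeR adjusted p = 0.0203). Hk3, a hexokinase gene 188 kb away, was likewise high in tumors and low in cells: 59.9 CPM in KO tumors and 45.8 CPM in control tumors, against 0.455 and 0.572 CPM in purified KO and control line 1 cells. Its difference between tumor groups had the other sign and did not pass (0.39 ± 0.17, edgeR adjusted p = 0.0853). It passed without KO tumor replicate 6 (0.49, edgeR adjusted p = 0.0243) or control tumor replicate 2 (0.47, edgeR adjusted p = 0.0433).

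**Figure D2:**
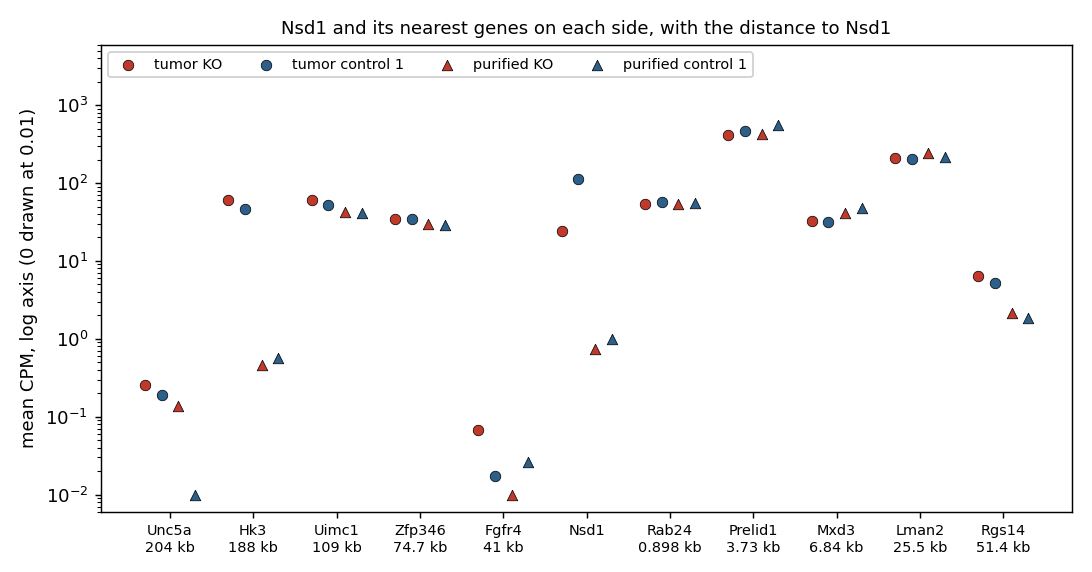
Mean CPM (log axis, 0 drawn at 0.01) of Nsd1 and the 5 nearest genes with a measurement on each side, in order along the chromosome with the distance to Nsd1 in kb; circles are tumors, triangles purified cells, red KO and blue control line 1. Nsd1 stands at 24.4 CPM in KO tumors and 112 CPM in control tumors, while Rab24 lies near 55 CPM in all 4 groups.

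The isoforms assigned to Nsd1 were compared by length. The isoform-weighted transcript length, the mean length of the transcripts of a gene weighted by their estimated shares, was 12225 to 12604 bases in KO tumors (median 12475) and 11167 to 12342 bases in control tumors (median 11702). The ranges overlapped between 12225 and 12342 bases, where 2 KO tumors and 1 control tumor lay. In cells the value rests on 6 to 35 counts per library and spread from 10872 to 12784 bases. Setd2 was almost constant, at 8366 to 8448 bases in KO tumors, 8296 to 8476 bases in control tumors and 8353 to 8461 bases in cells. Ash1l had 7747 to 9152 bases in KO tumors, 8610 to 9692 bases in control tumors and 9378 to 10676 bases in the 9 cell libraries. All KO tumors were thus below all cell libraries, while both tumor groups, and control tumors and cells, overlapped.

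**Figure D3:**
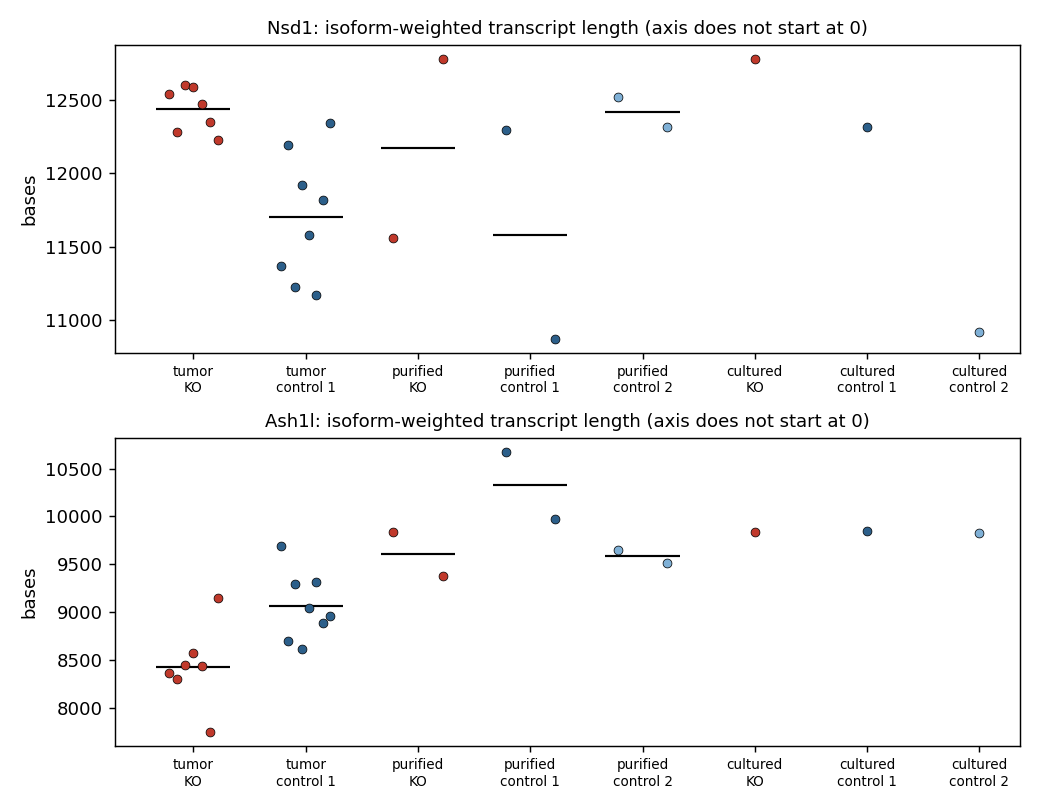
Isoform-weighted transcript length of Nsd1 (top) and Ash1l (bottom) in bases in each library, on axes that do not start at 0; points are libraries and black lines are group means. Nsd1 lengths are 12225 to 12604 bases in KO tumors and 11167 to 12342 bases in control tumors, and Ash1l lengths are lowest in KO tumors.

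In the authors' deposited tables of comparisons the log2 fold change of Sun1 is positive in each setting, so their sign is control over KO. The authors' deposited table for tumors gives Nsd1 1.89, where the present fit gives 2.18 in size with KO on top and hence the minus sign. In the authors' deposited tables for purified and cultured cells Nsd1 is at 0.08 ± 0.53 and 0.51 ± 1.42 (SE). The mean normalised count there is larger than the mean of the deposited expected counts after scaling, by 1.16 to 1.25 times for Setd2, Ash1l and Sun1 in the authors' deposited tables of all 3 settings. For Nsd1 the excess in the authors' deposited tables was 1.30 times in tumors, 1.95 times in purified cells (35.3 against 18.2) and 2.26 times in culture (20.6 against 9.10). Among these 4 genes the excess in the authors' deposited tables was largest for Nsd1, and the counts that went into those tables are not given in the sources used here.

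Setd2 (chromosome 9, 110532500 to 110618633, GRCm38), which makes the trimethyl mark, was present at a like level in cells and tumors and fell modestly in KO tumors. It ranged from 58.4 through a median of 74.4 to 76.9 CPM in KO tumors and from 77.2 through 81.3 to 96.2 CPM in control tumors. The ranges did not overlap, although the highest KO tumor came within 1 CPM of the lowest control tumor. The share of all genes whose tumor groups separate was not counted. Means were 72.2 ± 6.45 CPM in KO tumors and 84.5 ± 7.52 CPM in control tumors (SD, n = 7 and 8), with a log2 fold change of -0.22 ± 0.07 and an edgeR adjusted p of 0.0146. Without KO tumor replicate 6 it was -0.17 ± 0.06 (edgeR adjusted p = 0.0259).

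In purified cells Setd2 had 78.2 and 73.2 CPM in KO, against 74.5 and 77.6 CPM in control line 1 and 57.8 and 66.0 CPM in control line 2. The KO libraries lay on either side of those of control line 1 and above those of line 2. The KO difference did not pass (0.14 ± 0.13, edgeR adjusted p = 0.576), nor did that of control line 2 over line 1 (-0.29 ± 0.11, edgeR adjusted p = 0.0950). Without purified control line 2 replicate 2 the line difference was -0.38 ± 0.12 (edgeR adjusted p = 0.0430). Cultured cells had 72.1 CPM in the KO line, 75.9 CPM in control line 1 and 73.4 CPM in control line 2.

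Ash1l (chromosome 3, 88950414 to 89079375, GRCm38) also fell in KO tumors, with groups that overlapped. It ranged from 65.4 through a median of 101 to 117 CPM in KO tumors and from 104 through 119 to 150 CPM in control tumors. Means were 99.0 ± 16.3 CPM in KO tumors and 121 ± 15.8 CPM in control tumors (SD, n = 7 and 8), with a log2 fold change of -0.29 ± 0.10 and an edgeR adjusted p of 0.0334. Without KO tumor replicate 6 it was -0.21 ± 0.08 (edgeR adjusted p = 0.0374). The call was lost on leaving out KO replicate 1 or 5 or control replicate 1, 3 or 5 (-0.28, -0.29, -0.23, -0.27 and -0.27, edgeR adjusted p 0.0520 to 0.0728) and without the filter on low counts (edgeR adjusted p = 0.0505).

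In purified cells Ash1l had 100.1 and 103 CPM in KO, against 78.7 and 92.7 CPM in control line 1 and 65.2 and 89.0 CPM in control line 2. Both KO libraries were above all 4 control libraries, but the difference did not pass (0.33 ± 0.14, edgeR adjusted p = 0.221). How many of all genes separate in this way was not counted. The value of control line 2 over line 1 was -0.14 ± 0.14 (edgeR adjusted p = 0.528). Cultured cells had 90.0 CPM in the KO line, 79.3 CPM in control line 1 and 86.4 CPM in control line 2.

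**Figure D4:**
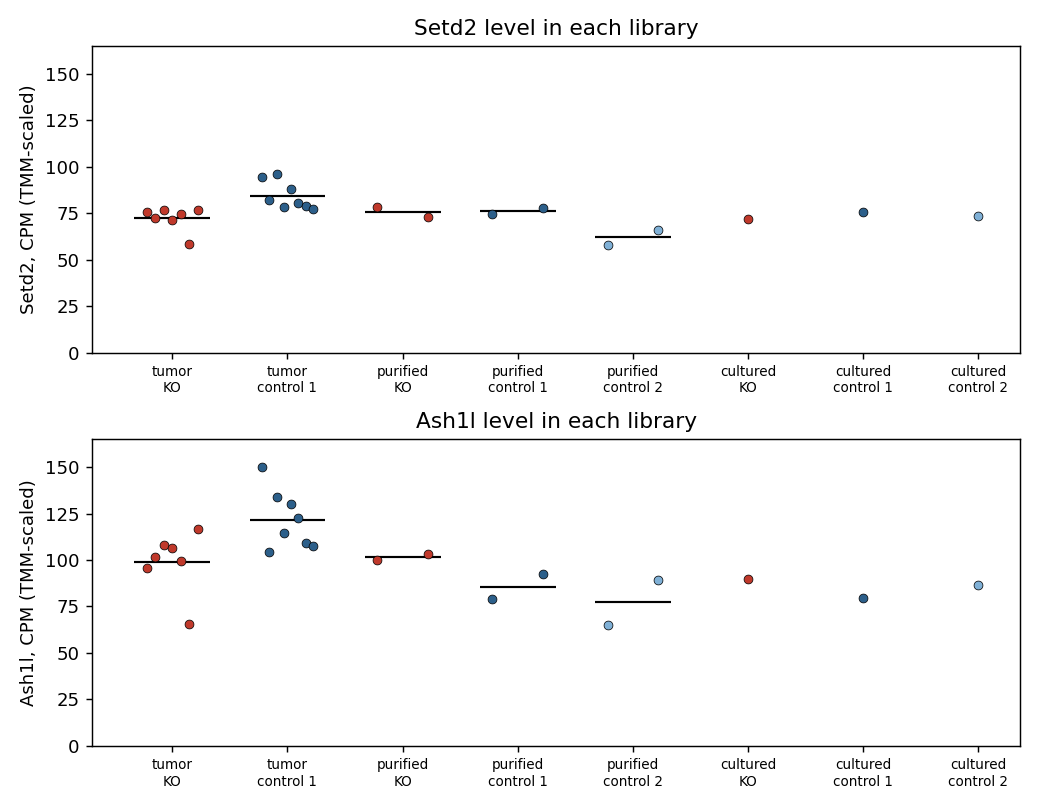
Setd2 (top) and Ash1l (bottom) in each of the 24 libraries, as CPM scaled by TMM on axes from 0; points are libraries and black lines are group means. KO tumors lie between 58.4 and 76.9 CPM for Setd2 and between 65.4 and 117 CPM for Ash1l, and KO tumor replicate 6 is the lowest point of its group in both.

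Both calls stand beside a large background. In tumors 5107 of 13752 genes tested (37.1%) passed, 18.1% higher and 19% lower in KO, so lower Setd2 and Ash1l were no rare outcome. In purified cells 4.55% of 12476 genes passed (2.26% higher, 2.29% lower), and neither Setd2 nor Ash1l did. Ash1l had an unadjusted p of 0.0462, and DESeq2 called neither. Between the purified control lines 15.7% of genes passed (6.73% higher, 9.01% lower in line 2), and neither gene did. Between tumors and purified cells, Ash1l was higher in control tumors than in purified control line 1 (0.54 ± 0.16, edgeR adjusted p = 0.00827), where 50.5% of 15886 genes passed (28.6% higher, 21.9% lower), and all 8 tumors were above both purified libraries. Without purified control line 1 replicate 1 the value was 0.43 ± 0.22 (edgeR adjusted p = 0.133). Setd2 in the same contrast (0.18 ± 0.10, edgeR adjusted p = 0.125) did not pass. KO tumors over purified KO cells gave -0.04 ± 0.10 for Setd2 (edgeR adjusted p = 0.778) and -0.00 ± 0.16 for Ash1l (edgeR adjusted p = 0.986), where 54.5% of genes passed (30.7% higher, 23.8% lower). The difference of the KO effect between tumors and purified cells, with control line 1 as the control in both, was -0.22 ± 0.14 for Setd2 and -0.54 ± 0.22 for Ash1l, and neither passed (edgeR adjusted p = 0.351 and 0.130), against 9.11% of all genes (4.27% higher, 4.84% lower).

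Genes with long transcripts were called lower in KO tumors more often than all genes, at the 1 length limit used. Setd2, Ash1l and Nsd1 all have long transcripts, and a group of genes with an isoform-weighted length of at least 8000 bases was chosen after seeing the data. The limit lies just below the length of Setd2, and the group includes Setd2, Ash1l and Nsd1 themselves. Of 514 such genes tested, 207 (40.3%) were called lower and 38 (7.39%) higher in KO tumors, against 19% and 18.1% of all genes tested. Their median log2 fold change was -0.15, against 0.01 over all genes. Setd2 was at -0.22, Ash1l at -0.29 and Nsd1 at -2.18. Within its group KO tumor replicate 6 had the lowest long transcripts, with a median deviation of -0.15 (log2), and control tumor replicate 1 the highest, with 0.15. The part of transcript length in the calls of Setd2 and Ash1l was not tested.

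Per length, Nsd1 changed its place among the H3K36 methyltransferases between tumors and cells. That step and the lower value in KO tumors restate the levels by which Nsd1 was chosen. In TPM (transcripts-per-million), which divides by length, Smyd2, Nsd2 and Nsd3 were the highest of the 8 genes in every group. Ash1l and Setd2 came next, with Setd2 the higher in purified and cultured control line 1 and Ash1l elsewhere. They had 13.1 ± 2.01 and 9.59 ± 1.03 TPM in KO tumors and 16.0 ± 2.89 and 12.1 ± 1.92 TPM in control tumors (SD). Nsd1 had 2.15 ± 0.26 TPM in KO tumors and 11.3 ± 1.87 TPM in control tumors, in sixth place in both. In control tumors it was close to Setd2, and their ranges overlapped (8.46 to 13.9 TPM for Nsd1 and 10.2 to 15.7 TPM for Setd2). In all 6 groups of cells Nsd1 was the lowest of the 8, at 0.03 to 0.16 TPM per library, below Prdm9 and Setmar. Its share of the summed TPM of the 8 genes was 1.51% in KO tumors and 6.44% in control tumors. By mean TPM, 10971 of 22492 detected genes exceeded Nsd1 in KO tumors and 7042 of 21782 in control tumors, against 14160 of 17514 in purified KO cells and 13754 of 17485 in purified control line 1.

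Of the 5 other H3K36 methyltransferases 1 was called in tumors, against 37.1% of all genes. Nsd2, listed under its older symbol Whsc1, fell in KO tumors (199 ± 15.6 CPM in KO, 233 ± 12.5 CPM in control, -0.22 ± 0.06, edgeR adjusted p = 0.00429). Nsd3, listed as Whsc1l1, had 106 ± 11.5 CPM in KO tumors and 117 ± 8.74 CPM in control tumors and did not pass (-0.13 ± 0.07, edgeR adjusted p = 0.113), but passed without KO tumor replicate 7 (-0.18, edgeR adjusted p = 0.0290). Smyd2, which methylates many proteins besides histones, had 69.7 ± 5.70 CPM in KO tumors and 68.1 ± 5.82 CPM in control tumors (0.04 ± 0.06). Prdm9, the meiotic enzyme that marks recombination hotspots, and Setmar stayed below 7 CPM in every library. The median log2 fold change of the 5 was 0.04, against 0.01 over all genes.

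In purified cells 0 of the 5 passed by edgeR, against 4.55% of all genes. Of the 5, 0 had an unadjusted p under 0.05 and DESeq2 called 0. Against control line 2 alone, where 2322 genes were called in all, Nsd3 was called higher in KO (0.52, edgeR adjusted p = 0.0131). Nsd3 was lower in purified control line 2 than in line 1, at 70.7 and 80.0 CPM against 99.4 and 102 CPM (-0.40 ± 0.11, edgeR adjusted p = 0.0243). That call was lost without control line 1 replicate 1 or 2 (edgeR adjusted p 0.115 and 0.133) or control line 2 replicate 1 (-0.33, edgeR adjusted p = 0.0908). Smyd2 was lower in tumors than in purified cells, both for KO (-0.43 ± 0.09, edgeR adjusted p = 0.000288) and for control line 1 (-0.53 ± 0.09, edgeR adjusted p = 2.18e-05). Nsd2 was lower in KO tumors than in purified KO cells (-0.35 ± 0.08, edgeR adjusted p = 0.000873), while the control contrast did not pass (-0.12 ± 0.08, edgeR adjusted p = 0.262).

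Some enzymes that remove the mark fell in KO tumors. Of 8 listed H3K36 demethylases 6 were tested, of which 3 fell and 0 rose, against 19% lower and 18.1% higher of all genes. Their median log2 fold change was -0.17, against 0.01 over all genes. Kdm4b, which removes trimethyl marks from H3K9 and H3K36, had 33.02 ± 5.66 CPM in KO tumors and 49.8 ± 7.73 CPM in control tumors (-0.58 ± 0.11, edgeR adjusted p = 0.000438). Its relative Kdm4a (-0.24 ± 0.07, edgeR adjusted p = 0.00685) and the dimethyl demethylase Kdm2a (-0.19 ± 0.06, edgeR adjusted p = 0.0234) fell less. The call of Kdm2a was lost without control tumor replicate 1 (-0.14, edgeR adjusted p = 0.0555). In purified cells 0 of the 6 passed by edgeR, with 1 at an unadjusted p under 0.05 and 0 called by DESeq2. Against control line 1 alone 2 passed, and against control line 2 alone 1. Those single-line fits called 2896 and 2322 genes in all, against 4.55% of 12476 genes with both lines. The added calls are therefore not particular to the demethylases.

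Genes for proteins that bind the mark were examined next. Of 14 H3K36 methylation readers 1 rose and 1 fell in KO tumors, with a median of -0.00, where 37.1% of all genes passed in either direction. Dnmt3b, a DNA methyltransferase drawn to H3K36 trimethylation, rose at a low level (3.83 ± 0.74 CPM in KO tumors, 2.56 ± 0.55 CPM in control tumors, 0.59 ± 0.17, edgeR adjusted p = 0.00985). Hdgfl2, listed as Hdgfrp2, fell (-0.17 ± 0.06, edgeR adjusted p = 0.0285), and lost the call without KO tumor replicate 1, 2, 5 or 6 or control tumor replicate 1 or 3 (-0.16, -0.14, -0.15, -0.15, -0.14 and -0.15, edgeR adjusted p 0.0516 to 0.0671). In purified cells 0 of the 14 passed by edgeR, against 4.55% of all genes, with 2 at an unadjusted p under 0.05 and 1 called by DESeq2. Against control line 1 alone 3 passed, and against control line 2 alone 1. Those single-line fits again called 2896 and 2322 genes in all, so the added calls are not particular to the readers. Of 6 genes for partners of SETD2 and ASH1L, 1 fell in KO tumors, against 19% of all genes: Supt6, a histone chaperone bound to elongating polymerase (99.0 ± 14.96 CPM in KO, 124 ± 10.3 CPM in control, -0.31 ± 0.08, edgeR adjusted p = 0.00576). In purified cells 1 of the 6 fell, against 2.29% of all genes: Rbbp4, a histone-binding subunit of several complexes (218 CPM in KO, 317 and 303 CPM in control lines 1 and 2, -0.51 ± 0.11, edgeR adjusted p = 0.0311).

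Genes for the opposing H3K27 mark were examined beside them. Of 9 genes for Polycomb repressive complex 2 and the H3K27 demethylases, 3 fell and 0 rose in KO tumors, with a median of 0.00, against 19% lower and 18.1% higher of all genes. They were Ezh1, a catalytic subunit (37.5 ± 2.98 CPM in KO, 47.7 ± 2.27 CPM in control, -0.34 ± 0.06, edgeR adjusted p = 0.000166), and the demethylases Kdm6a (25.4 ± 1.52 CPM in KO, 33.4 ± 2.16 CPM in control, -0.38 ± 0.06, edgeR adjusted p = 6.64e-05) and Kdm6b (31.5 ± 7.15 CPM in KO, 46.3 ± 9.45 CPM in control, -0.54 ± 0.15, edgeR adjusted p = 0.00888). In purified cells 1 of the 9 fell, against 2.29% of all genes. It was again Kdm6a (17.0 CPM in KO, 32.5 and 25.3 CPM in control lines 1 and 2, -0.76 ± 0.18, edgeR adjusted p = 0.0486).

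Of 16 methyltransferases of other histone lysines, 1 rose and 2 fell in KO tumors, with a median of -0.11, where 37.1% of all genes passed. The number called was 5 without KO tumor replicate 3 and 6 without KO tumor replicate 7. Suv39h1, which trimethylates H3K9 in heterochromatin, fell in tumors (34.9 ± 1.83 CPM in KO, 56.3 ± 3.91 CPM in control, -0.68 ± 0.06, edgeR adjusted p = 3.29e-08) and in purified cells (40.6 CPM in KO, 92.8 and 93.5 CPM in control lines 1 and 2, -1.19 ± 0.11, edgeR adjusted p = 0.00083). Its paralog Suv39h2 rose in tumors (19.3 ± 1.68 CPM in KO, 15.8 ± 1.15 CPM in control, 0.30 ± 0.07, edgeR adjusted p = 0.00383). Kmt5b, an H4K20 methyltransferase listed as Suv420h1, fell (-0.23 ± 0.07, edgeR adjusted p = 0.0196). In purified cells 2 of the 16 rose and 1 fell, against 2.26% higher and 2.29% lower of all genes. The median of the 16 was 0.28, against -0.01 over all genes. The risen genes were Kmt2b, an H3K4 methyltransferase (102 CPM in KO, 59.9 and 52.1 CPM in control lines 1 and 2, 0.88 ± 0.16, edgeR adjusted p = 0.0175), and Setdb2, an H3K9 methyltransferase (16.1 CPM in KO, 10.2 and 8.72 CPM in control lines 1 and 2, 0.78 ± 0.17, edgeR adjusted p = 0.0330).

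The purified calls of Rbbp4, Kdm6a, Kmt2b and Setdb2 were each lost without either KO replicate (edgeR adjusted p 0.0843 to 0.450), which leaves a single KO library. Those of Rbbp4, Kdm6a and Setdb2 were also lost without control line 1 replicate 2 (edgeR adjusted p 0.0635 to 0.0644), that of Kdm6a without control line 1 replicate 1 (edgeR adjusted p = 0.0639), and those of Kdm6a and Setdb2 without replicate 1 or 2 of control line 2 (edgeR adjusted p 0.0513 to 0.0642).

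**Figure D5:**
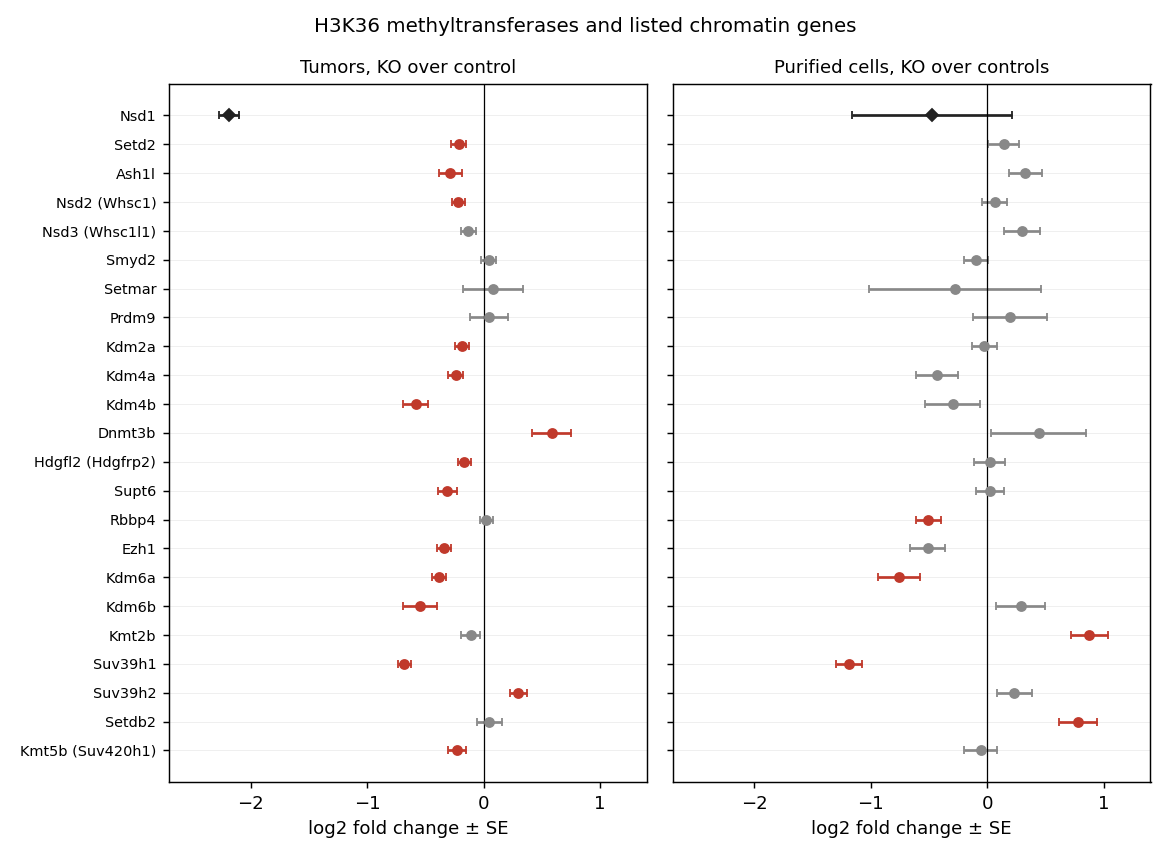
Log2 fold change ± SE, KO over control, of Nsd1, Setd2, Ash1l, the 5 other H3K36 methyltransferases and the named genes of the other lists, in tumors (left) and purified cells (right); red points passed the edgeR threshold, grey did not, and the black diamond is Nsd1, which was not tested. Nsd1 lies at -2.18 in tumors, beyond Suv39h1 at -0.68, and no other gene shown in tumors is below -0.6.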

How the data were processed

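RNA of the 24 libraries was enriched for mRNA and sequenced in pairs of reads, per the labels' protocols. Per the submitters' processing notes FastQC, STAR, RSEM and DESeq2 were used with the mm10 genome, and no version is given in the sources used here. Each library has a deposited RSEM table that holds, per the file headers, the expected count of each gene (not scaled between libraries), its TPM, its FPKM (unused) and its isoform-weighted length. For each setting they deposited a DESeq2 table with, per the file headers, a signal (the mean normalised count), a log2 fold change with its error, a score (the Wald statistic, unused), and a p-value, raw and adjusted. Its direction was read from Sun1. In all 0 columns were left unmapped.

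Expected counts were rounded and fitted with edgeR 4.0.16 (R 4.3.3) after TMM scaling. Low genes were removed by filterByExpr, with a count minimum of 10 and a total of 15. The robust quasi-likelihood test was used, its p-values were adjusted by Benjamini-Hochberg over all genes tested, and the threshold was 0.05. All tests are two-sided. Tumors and purified cells were fitted separately, purified controls as 1 arm of both lines. Contrasts across settings used 1 fit of all 24 libraries. Printed CPM were scaled over all libraries, and log2 CPM used a prior count of 2. Nsd1 passed the filter in each fit but was given no test. Setd2 and Ash1l passed too.

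The members, lists and comparisons were chosen with earlier results of these data known. Named are Nsd1, Setd2 and Ash1l, the other H3K36 methyltransferases, up to 4 called members per further list in tumors and up to 3 in purified cells, the 5 nearest genes on each side of Nsd1, and the genes most like it (10 over all libraries with a mean of at least 1 CPM, 5 over tumors with at least 5 CPM). Genes singled out beside tumor-only genes were chosen after their values were seen. Between replicates the chi-square per gene was at least 7.38, where a library counted again would give about 1. Steps were tested on simulated data with 200 changed genes. For KO against control tumors 71.6% of 1.5-fold and 89.6% of 2-fold changes were recovered. Of the calls 7.98% were unchanged genes. For purified KO cells against controls 11.9% of 1.5-fold and 53.7% of 2-fold changes were recovered, and 1.9% of the calls were unchanged genes. Between control lines 9.88% of the calls were. Alternatives were RLE size factors, DESeq2 1.42.0, no filter, a replicate block, leaving out libraries, single control lines and fits of fewer libraries.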

Additional observations from a re-analysis of the deposited data

Results flagged for a closer look

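In the group of 7 KO tumors, replicate 6 stood apart for 2 of the 3 genes. Its Setd2 level was 58.4 CPM, with the next library at 71.4 CPM, and its Ash1l level was 65.4 CPM, with the next at 95.9 CPM. The gap was 0.703 of the range of the group for Setd2 and 0.596 for Ash1l, above the critical value of 0.568. Chance passes this value in about 1 of 20 groups. Nsd1 of the same library, at 23.2 CPM, lay inside its group.

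For 6 genes of the lists the KO effect in tumors differed from that in purified cells, by the interaction in edgeR with control line 1 as the control in both settings. The effect in tumors minus that in purified cells was 0.56 ± 0.12 for Rbbp4 (adjusted p = 0.00453), 0.54 ± 0.14 for Kdm6a (adjusted p = 0.0162), -0.89 ± 0.19 for Kmt2b (adjusted p = 0.00427), 0.50 ± 0.12 for Suv39h1 (adjusted p = 0.00977), 0.52 ± 0.16 for Psip1 (adjusted p = 0.0386) and -0.51 ± 0.14 for Kmt5a (adjusted p = 0.0213). By list, 0 of 5 other H3K36 methyltransferases, 0 of 6 demethylases, 1 of 14 readers and 1 of 6 partners of SETD2 and ASH1L passed. So did 1 of 9 genes of the H3K27 list and 3 of 16 methyltransferases of other lysines. Over all genes 9.11% passed this test, so such calls were no rare outcome. These 6 calls were not checked singly by leaving out libraries. Kmt2b averaged 77.6 CPM in KO tumors and 84.4 CPM in control tumors, against 102 CPM in purified KO cells and 59.9 CPM in purified control line 1.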

How the results depend on the processing

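Nsd1 kept its direction in tumors in all alternatives (-2.21 to -2.12 on leaving out 1 library). By deposited TPM the ratio of KO to control tumors was 0.191 in place of 0.219. Setd2 in tumors kept its call throughout (adjusted p 0.0107 to 0.0337 on leaving out 1 library). Ash1l in tumors missed it without the filter (-0.29, adjusted p = 0.0505) and ranged from -0.33 to -0.21 on leaving out 1 library. Between tumors and purified control line 1, Ash1l ranged from 0.43 to 0.65. KO tumors over purified KO cells gave values that changed sign around 0 without passing: 0.0099 and 0.042 for Setd2 and Ash1l with RLE factors, 0.010 and 0.042 with DESeq2, and -0.12 to 0.012 for Setd2 on leaving out 1 library. Between the purified control lines the ranges on leaving out 1 library were -0.38 to -0.21 for Setd2, -0.38 to 0.054 for Ash1l and -1.82 to 0.91 for Nsd1.

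In purified cells, where edgeR called 4.55% of 12476 genes, the number called was 1205 by DESeq2, 908 without the filter, 2896 with control line 1 alone, 2322 with control line 2 alone and 72 to 540 on leaving out 1 library. Leaving out 1 library gave 791 to 2215 calls between control lines, against 1964, and 542 to 826 for the difference of KO effects, against 1448. Replicate numbers did not pair the tumors, since own-number correlations ran from -0.11 to 0.22 and no tumor correlated best with its own number. With the replicate block Setd2 was -0.23 (adjusted p = 0.00789) and Ash1l -0.32 (adjusted p = 0.0334) in tumors, and 303 genes were called in purified cells, with Rbbp4, Kdm6a and Setdb2 no longer among them. Other values near 0 that changed sign on leaving out 1 library were Setmar (-0.012 to 0.18), Prdm9 (-0.024 to 0.15) and Zfp346 (-0.041 to 0.066) in tumors, Setmar (-0.58 to 0.11) and Prdm9 (-0.065 to 0.42) in purified cells, Nsd2 between control lines (-0.18 to 0.0043), and Nsd3 in KO tumors over purified KO cells (-0.10 to 0.097, and -0.019 without the filter). Depth limits Nsd1 in cells to ratios with wide counting intervals. With 2 KO and 4 control libraries, the standard errors of the KO effect in purified cells were 0.13 for Setd2 and 0.14 for Ash1l.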
